A study of Mus musculus with 6 samples.

Results

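The synaptic vesicle release and scaffold genes described here are 48 genes of the cochlea of noise-exposed mice, out of 41096 genes in the deposited table. They were picked by symbol (synaptotagmins, synapsins, syntaxins and their binding proteins, complexins, active zone proteins, postsynaptic scaffolds and the like) from the 3716 genes that the study's down- and up-regulated lists name, 45 from the down list and 3 from the up list. Both lists were drawn up from the difference between the study's groups in these same animals. That difference therefore chose the members, and it is given below as a description with no test. Genes of the same families that are in neither list carry no name here, and nothing is said of them.

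The left cochleae came from mice whose strain the labels spell C56Bl/6 and the study's methods C57BL/6, described there as 4 week old females, and were sequenced after exposure of the left ear to a 16 kHz sound. In the sound trauma group (specimens 6, 8 and 10) the labels give the noise alone, and the study's methods add an injection of artificial perilymph into the posterior semicircular canal at 48 h. In the MSC treated group (specimens 13, 18 and 20) human mesenchymal stromal cells (MSC), isolated from umbilical cord Wharton's jelly, were given in saline by the same route, so that the vehicle differed as well. Each group has 3 libraries here, 1 per labelled specimen, while the methods speak of 5 animals per condition, and RNA was taken 2 days after treatment by the labels and 72 h after it by the methods. The injected cells were human and the reads were aligned to a mouse genome.

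At a chemical synapse, vesicles filled with transmitter are docked at an active zone, primed, and fused with the membrane when calcium enters. Fusion is carried out by the SNARE proteins, with Snap25 and a syntaxin on the cell membrane and a synaptobrevin (Vamp) on the vesicle, under the control of Sec1/Munc18 (SM) proteins, complexins and the calcium sensing synaptotagmins. Bassoon, Rims and Munc13 proteins (Unc13 genes) build the release site, and the Dlg, Dlgap, Shank and Homer scaffolds hold receptors in place on the receiving side. In the cochlea, inner hair cells release glutamate onto spiral ganglion neurons at ribbon synapses, where otoferlin takes the part that synaptotagmins 1 and 2 play in the brain. The release proteins of conventional synapses are known mainly from neurons, including the ganglion cells themselves and the efferent fibers that reach the cochlea.

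Values are scaled counts, that is, read counts multiplied by 1 factor per library by the authors. In each sentence on a gene they are given for specimens 6, 8 and 10 after sound trauma, in this order, against specimens 13, 18 and 20 after MSC treatment. The libraries held between 9170390 and 11030863 reads on genes. Log2 fold changes are MSC treated minus sound trauma, with the standard error of a limma fit on log2(scaled count + 1) over 15970 genes, and a difference on the log2 scale refers to the same unit. Of the 48 members, 47 passed the filter on low counts and were in that fit, which is used for their size and error only, and Syt10 did not pass.

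The libraries of the sound trauma group stood apart from each other. All 45 members of the down list had their highest value in sound trauma specimen 8, which was the highest library for 28.2% of all genes tested. Summed over these 45 genes, the scaled counts were 40116, 105719 and 25442 after sound trauma against 26176, 34742 and 32445 after MSC treatment. The sum of specimen 8 lay above every other library, specimen 6 came second, and specimen 10 was the lowest of the 6. Specimens 6 and 8 both lay above every MSC treated value for 31 of the 45, against 15.6% of all genes tested. Specimen 10 lay within the MSC treated range for 21 (55.8% of all genes), below it for 21 (21.9% of all genes) and above it for 3. Fold changes of the down list members are therefore given with and without specimen 8.

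**Figure D1:**
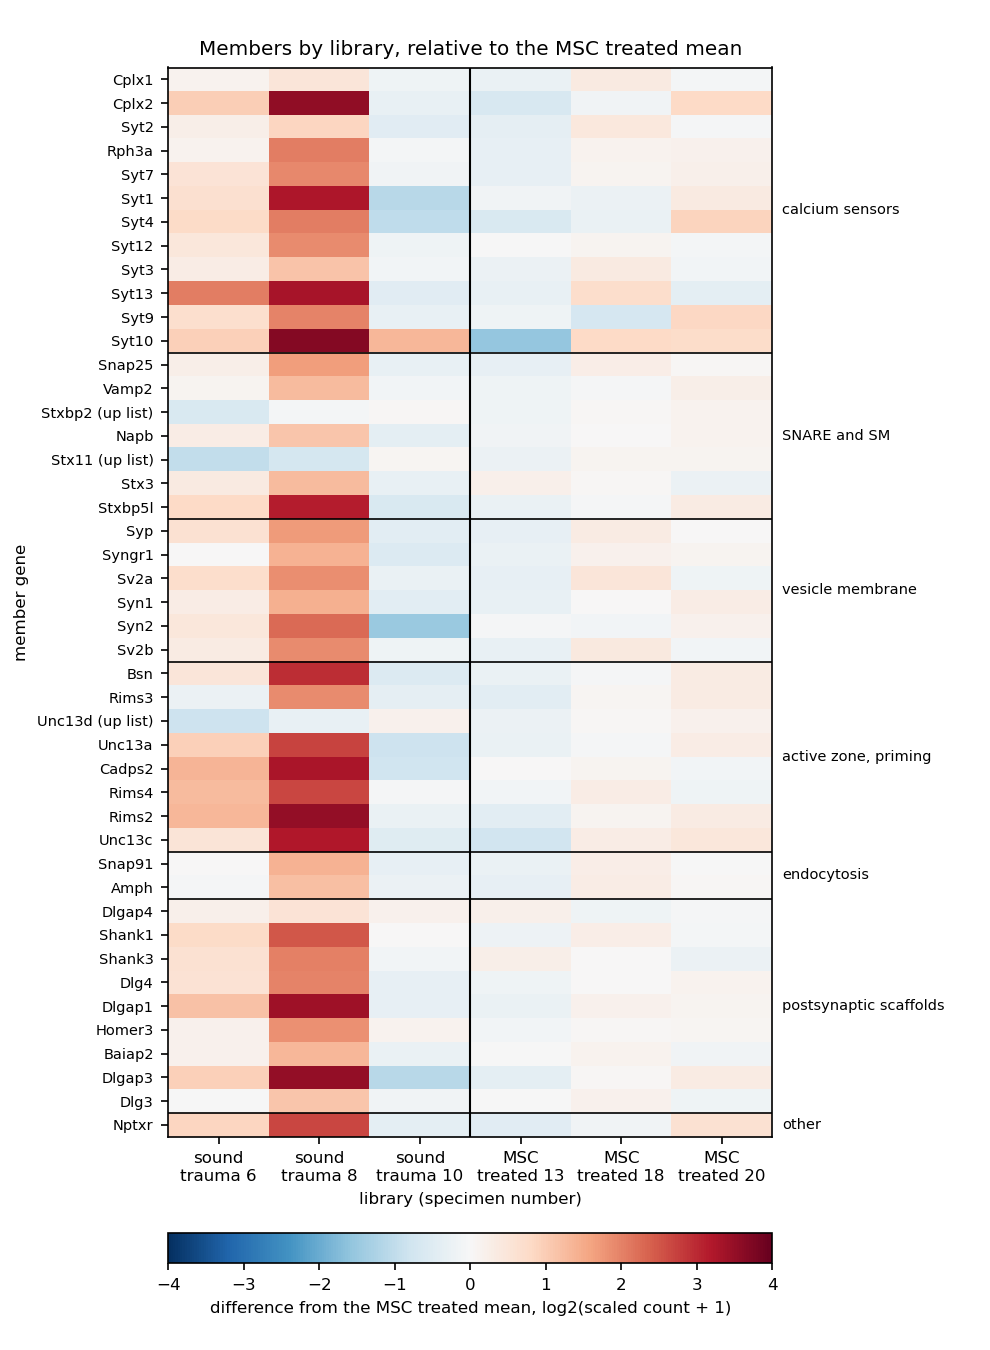
Members (rows, grouped by role) relative to its mean over the MSC treated libraries, on the log2(scaled count + 1) scale, in each of the 6 libraries (columns). Sound trauma specimen 8 has the highest value in the row of every down list member drawn, while specimen 10 is pale or blue in most rows.

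Markers of other cell types differed between the same libraries. Of 15 markers of cerebellar and hindbrain neurons, 13 are named in the lists, all 13 in the down list. Their summed scaled counts were 4611, 25286 and 1806 after sound trauma against 1919, 2610 and 1739.5 after MSC treatment, so that the range was 1806 to 25286 in the first group and 1739.5 to 2610 in the second. Among the defining cerebellar genes, Gabra6 had 179 and 1497 reads in specimens 6 and 8. In specimens 10, 13, 18 and 20 it had 1, 2, 6 and 4 reads. These are close to the limit of 3 reads that a count of 0 allows. Markers of astrocytes and oligodendrocytes (11 of 12 named, all in the down list) summed to 31788, 55379 and 13372 against 11676, 28773 and 14724. Forebrain neuron markers (3 of 11 named) summed to 3529, 6047 and 1299 against 1848, 1614 and 1152, and peripheral neuron markers (2 of 11 named, Epha4 and Pou4f1) to 242, 374 and 282 against 256, 269 and 303. The latter sum joins genes that ran opposite ways. Epha4, of the down list, had 140, 316 and 188 against 168, 148 and 106, and was highest in specimen 8. Pou4f1, of the up list, had 102, 57.4 and 94.7 against 87.3, 121 and 197, and was lowest in specimen 8. The 3 named of 12 hair cell genes summed to 28644, 3296 and 10299 against 20036, 4853 and 4086. Most of this sum was Pvalb, a down list gene that is also a muscle gene. The other 2, Otof and Pou4f3, are in the up list, were read in every library and were lowest in specimens 6 and 8. Pou4f3 had 26.7, 22.9 and 50.0 scaled counts against 45.7, 43.9 and 53.4, and the values of Otof are given below. The part of these cell types in the values of the members was not tested. In RNA of a whole cochlea, fewer cells of a type and less RNA per cell cannot be told apart.

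**Figure D2:**
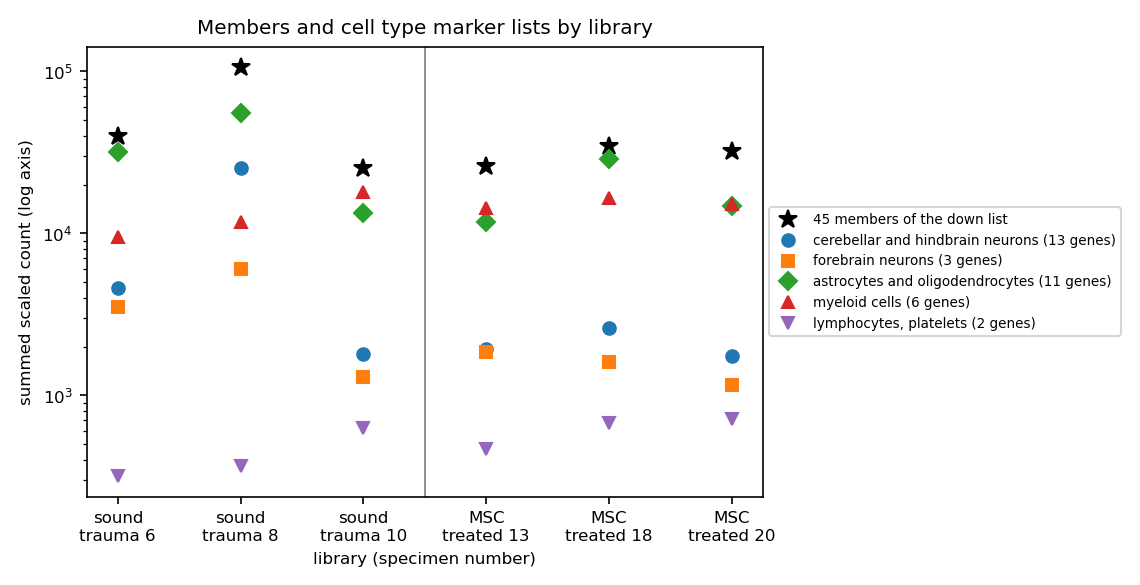
Summed scaled counts (log axis) of the 45 members of the down list and of 5 lists of cell type markers, each over its named genes, in the 6 libraries. The members, the cerebellar and hindbrain list and the glial list are highest in sound trauma specimen 8, and the blood cell lists are lowest in specimen 6.

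Promoter sequences were available from RefSeq (build GRCm38.p6) for 34 of the 48 members, 32 of the down list and 2 of the up list. They are shown for 4 members that the results below turn on. Syn1 is a standard neuronal promoter, Syt1 and Syt2 encode 2 calcium sensors whose levels differed unlike each other between libraries, and Stx11 is from the up list. The 250 bases before the start of transcription are printed 5′ to 3′ on the strand of the gene. In Syn1 (chrX:20920919-20921168, minus strand), capitals mark TTCAGCACC, the first part of the element bound by the neuronal gene repressor REST, 232 bases before the start, and the cyclic AMP response element TGACGTCA. In Syt1 (chr10:109010976-109011225, minus strand), Syt2 (chr1:134646362-134646611, plus strand) and Stx11 (chr10:12964260-12964509, minus strand), capitals mark the GC box GGGCGG or its reverse complement CCGCCC.
Syn1: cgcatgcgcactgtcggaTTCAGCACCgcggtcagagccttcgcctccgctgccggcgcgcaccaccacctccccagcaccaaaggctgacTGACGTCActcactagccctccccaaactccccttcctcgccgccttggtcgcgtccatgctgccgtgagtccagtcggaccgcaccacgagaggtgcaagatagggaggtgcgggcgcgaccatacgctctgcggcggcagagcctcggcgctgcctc
Syt1: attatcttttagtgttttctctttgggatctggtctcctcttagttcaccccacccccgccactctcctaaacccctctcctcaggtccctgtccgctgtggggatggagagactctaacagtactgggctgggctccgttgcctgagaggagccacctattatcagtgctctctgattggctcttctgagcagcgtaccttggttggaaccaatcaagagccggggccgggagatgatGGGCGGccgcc
Syt2: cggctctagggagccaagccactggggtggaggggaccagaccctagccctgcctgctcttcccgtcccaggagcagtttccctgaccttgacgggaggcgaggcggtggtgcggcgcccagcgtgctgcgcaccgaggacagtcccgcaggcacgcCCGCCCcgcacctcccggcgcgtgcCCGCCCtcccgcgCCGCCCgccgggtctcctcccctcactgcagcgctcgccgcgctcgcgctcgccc
Stx11: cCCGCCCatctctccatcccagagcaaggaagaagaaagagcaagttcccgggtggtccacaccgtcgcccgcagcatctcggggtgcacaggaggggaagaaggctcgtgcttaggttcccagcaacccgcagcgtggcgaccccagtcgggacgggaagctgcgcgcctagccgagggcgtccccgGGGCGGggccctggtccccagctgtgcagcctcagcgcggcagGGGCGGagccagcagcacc

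Searched on both strands over the same 250 bases, a GC box stood before 23 of the 34 members (67.6%), against 45.8% of 17491 protein coding genes and 35.4% of all 27025 genes in the promoter set. A TATA box (TATAAA) was found for 3 members (8.82%, against 13.7% of protein coding genes), namely Baiap2, Stx3 and Sv2b. TGACGTCA was found for 1 member, Syn1, and in 2.2% of protein coding genes. TTCAGCACC was likewise found for 1 of the 34, Syn1, and in 0.377% of protein coding genes. The longer RE1 core, which overlaps it, was in 0 of the 34 promoters and in 0.0457% of protein coding genes. Genes with several starts were counted once if any start held the motif. A match is a description of the letters and not a bound site.

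By the mean FPKM columns of the deposited lists, which are per length and carry no error, complexin 1 was the most abundant member in both groups, at 131 after sound trauma and 124 after MSC treatment. Snap25 followed with 99.5 and 60.5 and Vamp2 with 82.3 and 58.3. Cplx2 stood at 50.3 after sound trauma and 11.5 after MSC treatment. At the other end were Syt10 with 0.874 and 0.153 and Stxbp5l with 0.615 and 0.161. These core fusion genes were thus the most abundant of the set.

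The SNARE and SM proteins carry out fusion itself. Snap25 (MGP_C57BL6NJ_G0026980), the SNARE that binds syntaxin and synaptobrevin at the cell membrane, had 4628, 12397 and 3143 scaled counts against 3130.3, 4721 and 4019. Vamp2 (MGP_C57BL6NJ_G0018909), the synaptobrevin of brain vesicles, had 2294, 5119 and 1999 against 1900.2, 2048 and 2503. For both genes specimen 8 was more than 2-fold above the highest MSC treated value, and specimens 6 and 10 lay within the MSC treated range. The log2 fold changes were -0.53 (standard error 0.50) for Snap25 and -0.42 (0.36) for Vamp2, and 0.03 and -0.004 without specimen 8. Napb, Stx3 and Stxbp5l, also of this class and in the down list, had log2 fold changes between -1.11 and -0.34, and between -0.10 and 0.05 without specimen 8. Within a library the ratio of Snap25 to Vamp2 counts varied 1.54-fold over the 6 libraries, from 1.57 in specimen 10 to 2.42 in specimen 8.

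**Figure D3:**
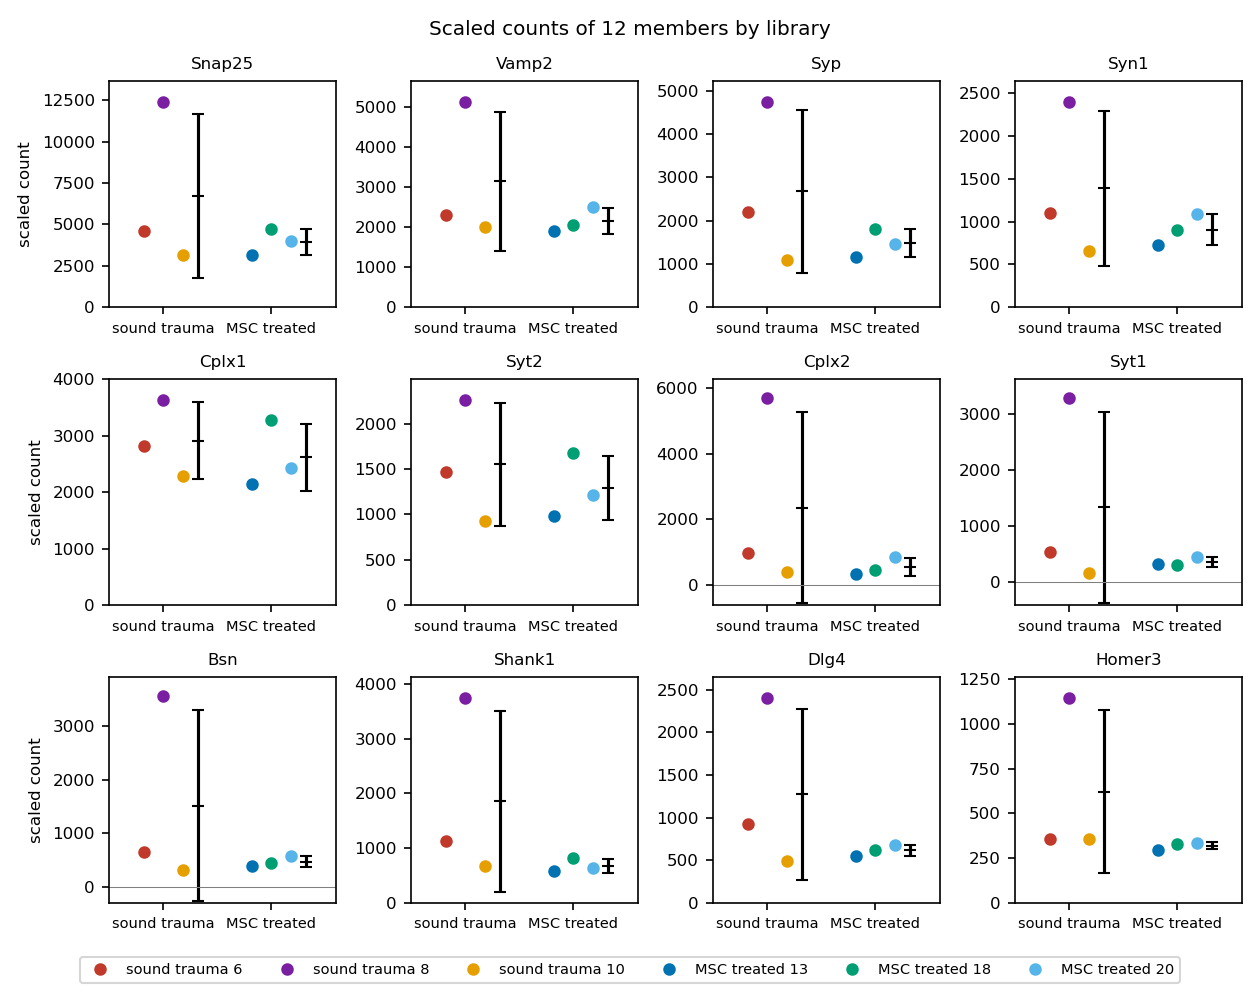
Scaled counts of 12 members in the 6 libraries (points, colored by specimen), with the mean and SD of each group of 3 as bars to the right of its points. Sound trauma specimen 8 is the highest point in every panel, and of these 12 genes only Homer3 has separate groups.

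The vesicle membrane and vesicle cluster proteins are all 6 in the down list, and the median of their log2 fold changes was -0.53, and -0.01 without specimen 8. Synaptophysin (Syp, MGP_C57BL6NJ_G0036013), an abundant vesicle membrane protein, had 2204, 4739 and 1081 scaled counts against 1167, 1813 and 1469.7. Sv2a, a vesicle glycoprotein and the target of the drug levetiracetam, had 1256, 2821 and 636 against 617, 1082 and 691. Both were highest in specimen 8 and next highest in specimen 6, and their log2 fold changes were -0.62 (standard error 0.52) and -0.76 (0.53), and -0.08 and -0.21 without specimen 8. Synapsin 1 (Syn1, MGP_C57BL6NJ_G0036104), which tethers the reserve pool of vesicles and whose promoter is shown above, had 1106, 2396 and 660.2 against 724, 899.8 and 1087. Its relative synapsin 2 (Syn2) had 435, 1534 and 113 against 308, 291 and 354. Specimen 10 was below every MSC treated library in both, by the widest margin for Syn2, at -1.48 on the log2 scale from the MSC treated mean, the lowest value of specimen 10 among all 48 members. Without specimen 8 the log2 fold change of Syn2 turned from -0.42 (0.86) to 0.51, and that of Syn1 from -0.43 (0.46) to 0.06. Synaptogyrin 1 (Syngr1), a vesicle protein related to synaptophysin, had 1072, 2755 and 725 against 885, 1179.6 and 1134, and its log2 fold change of -0.28 (0.47) likewise turned to 0.26 without specimen 8. The remaining gene of this class, Sv2b, had a log2 fold change of -0.68, and of -0.08 without specimen 8.

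The calcium sensors and their clamps were the largest class, with 12 members, all in the down list, and the 11 in the fit had a median of -0.72 on the log2 fold change scale, and of -0.09 without specimen 8. Cplx1 (MGP_C57BL6NJ_G0030288), a complexin that clamps and then speeds fusion, had 2818, 3638 and 2282 scaled counts against 2142, 3281 and 2424. Syt2 (MGP_C57BL6NJ_G0016916), the fast calcium sensor best known from the hindbrain and auditory brainstem, had 1466, 2266 and 925 against 978, 1682 and 1215. MSC treated specimen 18 lay above sound trauma specimens 6 and 10 in both genes, and the log2 fold changes were -0.15 (standard error 0.24) and -0.21 (0.36). Without specimen 8 both changed sign, to 0.02 and 0.11. Syt13 (MGP_C57BL6NJ_G0026592), an atypical synaptotagmin with little calcium binding, had 398, 955 and 70.6 against 77.9, 156 and 72.8. The log2 fold change was -1.63 (0.92), the largest of the set in this fit, and -0.80 without specimen 8. Rims2 was larger than Syt13 in edgeR (-2.29 against -2.22), and both Cplx2 and Rims2 were larger without specimen 6 (-1.63 and -1.63 against -1.43) and without specimen 20. Specimen 6 was 2.54-fold above the highest MSC treated value for Syt13, the most among the members.

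A pair of these sensors each has a relative in the same class, and the relatives did not follow one pattern. Cplx2 (MGP_C57BL6NJ_G0020951), the complexin of forebrain and many other neurons, had 950.3, 5706 and 393 scaled counts against 309.6, 436 and 839, so that specimen 8 was 6.8-fold above the highest MSC treated library where Cplx1 was 1.11-fold above. Within a library the ratio of Cplx2 to Cplx1 counts was 0.337, 1.57 and 0.172 against 0.144, 0.133 and 0.346. Syt1 (MGP_C57BL6NJ_G0018112), the fast sensor of forebrain synapses, was chosen after its values were seen and had 539, 3293 and 161 against 317, 295 and 447. The ratio of Syt1 to Syt2 counts was 0.368, 1.45 and 0.174 against 0.324, 0.176 and 0.367. The log2 fold changes were -1.41 (standard error 0.96) for Cplx2 and -0.92 (1.01) for Syt1, and without specimen 8 they were -0.34 and 0.24, so that Syt1 changed sign. Both ratios were highest in sound trauma specimen 8, at 4.53 and 3.96 times the highest MSC treated ratio, and specimen 6 lay within the MSC treated range or just above it. Not all pairs of relatives in the down list did so. Among those compared, this multiple ran from 0.986 for Sv2b to Sv2a, highest in specimen 10, to 5.63 for Dlgap1 to Dlgap4. It was 1.12 for Unc13c to Unc13a and 1.15 for Shank1 to Shank3. A ratio within a library does not depend on how the library was scaled, and it is not a ratio of levels, since gene lengths differ.

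Other sensors were abundant as well. Rph3a, a Rab3 effector on vesicles, had 826, 3090.0 and 708 scaled counts against 599, 834 and 857, and Syt7, a slow sensor of high calcium affinity, had 1050.0, 2722 and 653 against 577, 785 and 834. Their log2 fold changes were -0.69 (standard error 0.55) and -0.77 (0.50), and -0.02 and -0.20 without specimen 8. Syt4, Syt12, Syt3 and Syt9 had log2 fold changes between -0.78 and -0.45, and between -0.18 and 0.13 without specimen 8. Syt10 was at the edge of detection, with 4, 38 and 7 reads against 0, 4 and 4. The count of 0 in specimen 13 allows up to 3 reads, or 3.12 scaled counts. Its 3 sound trauma values, 4.64, 36.3 and 6.25 scaled counts, lay above all 3 MSC treated values, but specimen 6 had the same 4 reads as specimens 18 and 20 and stood above them only through the scaling.

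The active zone and priming proteins had a median log2 fold change of -1.02 over 8 genes, of which 7 are in the down list, and of -0.04 without specimen 8. Bassoon (Bsn, MGP_C57BL6NJ_G0035780), a giant scaffold of the release site that also anchors the hair cell ribbon, had 647, 3562 and 317 scaled counts against 380.2, 442 and 579.5. Munc13-1 (Unc13a, MGP_C57BL6NJ_G0034256), which primes vesicles for fusion, had 494, 1654 and 143 against 212, 247 and 314. Specimen 8 was 6.15-fold and 5.28-fold above the highest MSC treated library, and specimen 10 was below the lowest, so that the log2 fold changes of -0.97 (standard error 0.83) and -0.94 (0.82) were 0.02 and -0.06 without specimen 8. Cadps2, a priming factor best known for dense core vesicles of cerebellar and other neurons, had 301, 1115 and 66.1 against 116, 126 and 107, a log2 fold change of -1.27 (0.93). Specimen 10 was below every MSC treated library here too, and without specimen 8 the log2 fold change was -0.28. Rims3 had 597, 2613 and 546 against 529.9, 742 and 886. It was the one active zone gene of the down list with specimen 6 below the MSC treated mean, by 0.24 on the log2 scale, and its log2 fold change of -0.43 (0.61) was 0.30 without specimen 8. Rims4, Rims2 and Unc13c had log2 fold changes between -1.53 and -1.08, and between -0.61 and -0.02 without specimen 8. Their values in specimen 8 were 2.68 to 3.52 above the MSC treated mean on the log2 scale, and for Rims2 specimen 8 was 9.28-fold above the highest MSC treated library.

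The endocytosis genes Snap91 and Amph, an adaptor of clathrin coats and a membrane curving protein that retrieve vesicles after fusion, had small differences. Snap91 had 557, 1462 and 439 scaled counts against 466, 676 and 547, and Amph had 457, 1089.9 and 399 against 372, 575 and 481. MSC treated specimen 18 lay above sound trauma specimens 6 and 10 in both. The log2 fold changes of -0.35 (standard error 0.45) and -0.32 (0.40) were 0.17 and 0.13 without specimen 8.

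On the receiving side, all 10 postsynaptic scaffold members are in the down list, and the median of their log2 fold changes was -0.74, and -0.18 without specimen 8. Dlg4 (PSD-95, MGP_C57BL6NJ_G0018970), which binds NMDA receptors and anchors the density, had 921, 2405 and 489.6 scaled counts against 548, 618 and 676. Shank1 and Shank3, which join the Dlgap layer to Homer and actin, had 1139, 3752 and 675 against 575, 812 and 639.7, and 1133, 2994 and 693 against 866, 744 and 638. In all 3 genes specimens 6 and 8 were above every MSC treated library and specimen 10 was not. The log2 fold changes were -0.75 (standard error 0.54), -1.09 (0.60) and -0.84 (0.51), and without specimen 8 they were -0.14, -0.39 and -0.25. The Dlgap proteins, which link Dlg4 to the Shanks, differed among themselves. Dlgap1 had 436, 2028 and 153 against 159, 219 and 206, whereas Dlgap4, which is also read widely outside neurons, had 1759, 2243 and 1714 against 1749.5, 1360.4 and 1474. The ratio of Dlgap1 to Dlgap4 counts within a library was 0.248, 0.904 and 0.0891 against 0.0909, 0.161 and 0.140, a 10.2-fold span over the 6 libraries. Log2 fold changes were -1.41 (0.86) for Dlgap1 and -0.32 (0.16) for Dlgap4, and those of Baiap2, Dlgap3 and Dlg3 were between -1.12 and -0.31. Without specimen 8 they were -0.42 for Dlgap1, -0.19 for Dlgap4 and between 0.06 and 0.09 for the other 3.

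One of the scaffold genes, Homer3, had separate groups. Homer3 (MGP_C57BL6NJ_G0034194), which couples metabotropic glutamate receptors to calcium stores and is strong in Purkinje cells, had 359, 1146 and 354 scaled counts against 296, 327 and 335. All 3 sound trauma libraries lay above the 3 MSC treated ones, but specimens 6 and 10 exceeded specimen 20 by less than the range of the MSC treated values. The log2 fold change was -0.72 (standard error 0.46), and -0.16 without specimen 8. Homer3 and Syt10 were among the 3 of 48 members whose groups did not overlap, all lower after MSC treatment, against 2.92% of all genes tested in that direction. In the upward direction there were 0 members, against 4.25% of all genes. Because the rule chose members by this contrast, nothing is read from these shares. When libraries were scaled by total counts, 1 member in place of 3 had separate groups.

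Nptxr, the neuronal pentraxin receptor, which takes part in clustering AMPA receptors, had 683, 2399 and 282 scaled counts against 269, 340.1 and 563. Specimen 8 was highest, specimen 6 was 1.21-fold above the highest MSC treated library, and the log2 fold change was -1.05 (standard error 0.75), and -0.24 without specimen 8.

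Over the whole table limma gave 0 genes an adjusted p under 0.05 (Benjamini-Hochberg), 0% in each direction. Without adjustment, 107 genes of the 15970 were lower and 269 higher at p under 0.05. With edgeR's quasi-likelihood test, run on recovered reads, 0 passed as well, with 266 lower and 259 higher at the unadjusted limit, and DESeq2 gave 0, with 550 lower and 249 higher. The median log2 fold change of the 47 members in the fit was -0.69, against 0.001 over all genes tested, a difference that the choice of members from the lists fixes in large part. For the 44 members of the down list in the fit it was -0.72. Without specimen 8 this median was -0.07, with 28 of 44 genes lower in MSC treated animals. Without specimens 6 and 8, which leaves specimen 10 as the one sound trauma library, it was 0.31, so that most of the down list members then had a higher value after MSC treatment. With specimen 6 alone left out it was -0.83, with 44 of 44 lower, and with specimen 10 alone left out it was -1.20.

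**Figure D4:**
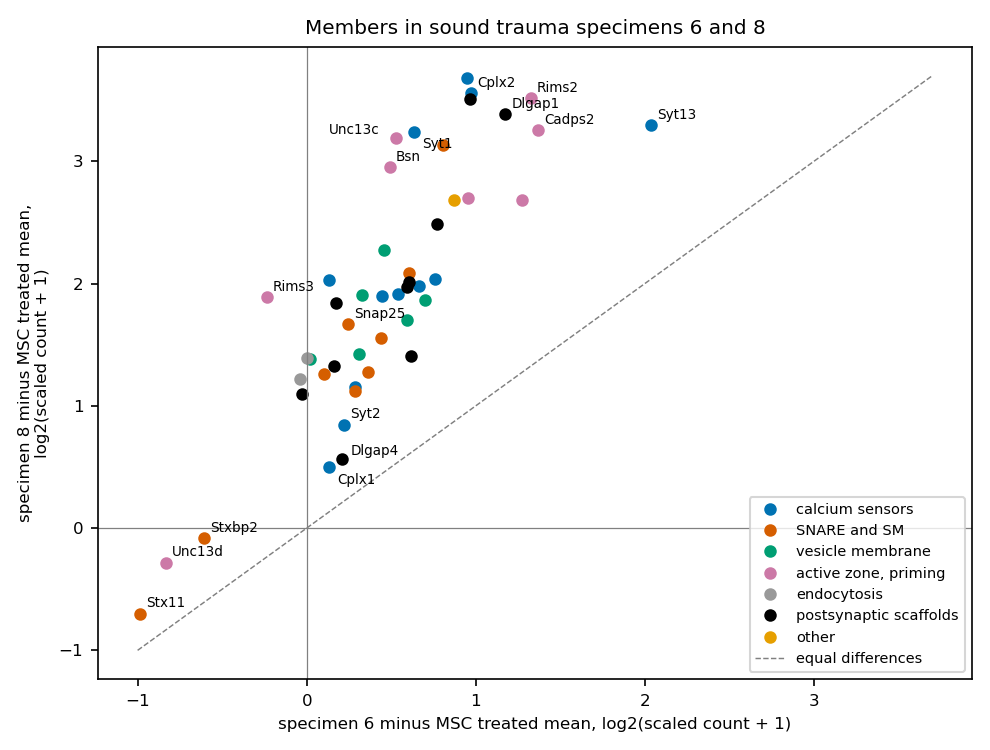
Difference from the MSC treated mean, on the log2(scaled count + 1) scale, in sound trauma specimen 6 (x axis) and specimen 8 (y axis) for each of the 48 members, colored by role, with a dashed line of equal differences. All 48 points lie above the line, and the 3 members of the up list are at the lower left, below the MSC treated mean in both specimens.

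The members were not higher in specimens 6 and 8 in one proportion. The ratio of specimen 8 to specimen 6 had a median of 2.64 over the 45 members of the down list and ran from 1.28 for Dlgap4 to 7.84 for Syt10, against a median of 1.09 over all genes tested. Over the down list members of each class, the median was 4.38 for the active zone and priming proteins and 2.23 for the SNARE and SM proteins. Unc13c stood at 6.39, Syt1 at 6.11, Cplx2 at 6 and Bsn at 5.51, whereas Syt2 stood at 1.55 and Cplx1 at 1.29. As differences from the MSC treated mean, the down list members had medians of 0.53 in specimen 6, 1.91 in specimen 8 and -0.30 in specimen 10, on the log2 scale, against -0.04, -0.01 and 0.002 over all genes tested. Subunits of transmitter receptors had a like order of libraries. The 15 ionotropic glutamate receptor subunits named in the lists had medians of 0.96, 3.23 and -0.33, and the 10 GABA-A receptor subunits had 1.6, 3.54 and -1.44. All 25 were highest in specimen 8, and they too were chosen by the study from this comparison.

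The 3 MSC treated libraries also differed. Specimen 13 had the lowest of the 3 values for 32 of the 45 down list members, and specimen 18 had the highest for 21 of them and specimen 20 for 20. The coefficient of variation within the MSC treated group had a median of 20.1% for these members, against 13.2% over all genes tested. It was 6.41% for Homer3, and among the members in the fit it reached 59.3% for Syt4, 55.7% for Syt9 and 52.3% for Cplx2. Of the MSC treated libraries, specimen 20 had the highest value of these 3 genes. Syt4, which sits on dense core vesicles and rises with neuronal activity, had 462, 1122 and 134 scaled counts against 177, 225 and 509.6. Syt13 had its highest MSC treated value in specimen 18, in which the glial markers above were also highest among the MSC treated libraries.

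The 3 members of the up list are a different set of relatives. Munc13-4 (Unc13d), syntaxin 11 (Stx11) and Munc18-2 (Stxbp2) serve the release of granules from cytotoxic lymphocytes, platelets and mast cells, and loss of any of them causes an inherited hyperinflammatory disease in humans. Unc13d (MGP_C57BL6NJ_G0019805) had 360.4, 528 and 722 scaled counts against 545, 668 and 727. Stx11 (MGP_C57BL6NJ_G0017414) had 209.8, 256 and 444 against 352, 454 and 452. For Stxbp2 (MGP_C57BL6NJ_G0033805) the values were 709, 1021 and 1126 against 955, 1104 and 1195. Specimen 6 was the lowest library for all 3, and specimen 10 lay within the MSC treated range for all 3, so that no group was separate. The log2 fold changes were 0.32 (standard error 0.27), 0.53 (0.29) and 0.21 (0.20). Without specimen 8 they ranged from 0.27 to 0.45, without specimen 6 from 0.01 to 0.30, and without specimens 6 and 8 all 3 were below 0, from -0.17 to -0.06.

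Unc13d was also set against its neuronal relative Unc13a within each library. The 2 genes come from opposite lists, so that opposite signs of their fold changes were fixed by the choice. Over the 6 libraries Unc13a ran from 143 to 1654 scaled counts and Unc13d from 360.4 to 727. The ratio of Unc13d to Unc13a counts was 0.73, 0.319 and 5.05 against 2.57, 2.7 and 2.32. It was lowest in specimen 8, next lowest in specimen 6 and highest in specimen 10. The last of these is a sound trauma library, so that the ratio did not separate the groups. Blood cell markers were lowest in specimens 6 and 8, with specimen 6 the lower. The 6 named of 12 myeloid markers summed to 9544, 11778 and 18055 against 14289, 16487 and 15227, and the 2 named of 16 lymphocyte and platelet markers, Cd4 and Gp9, to 316, 365 and 633 against 464, 673 and 715. Their part in the values of the 3 genes was not tested.

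**Figure D5:**
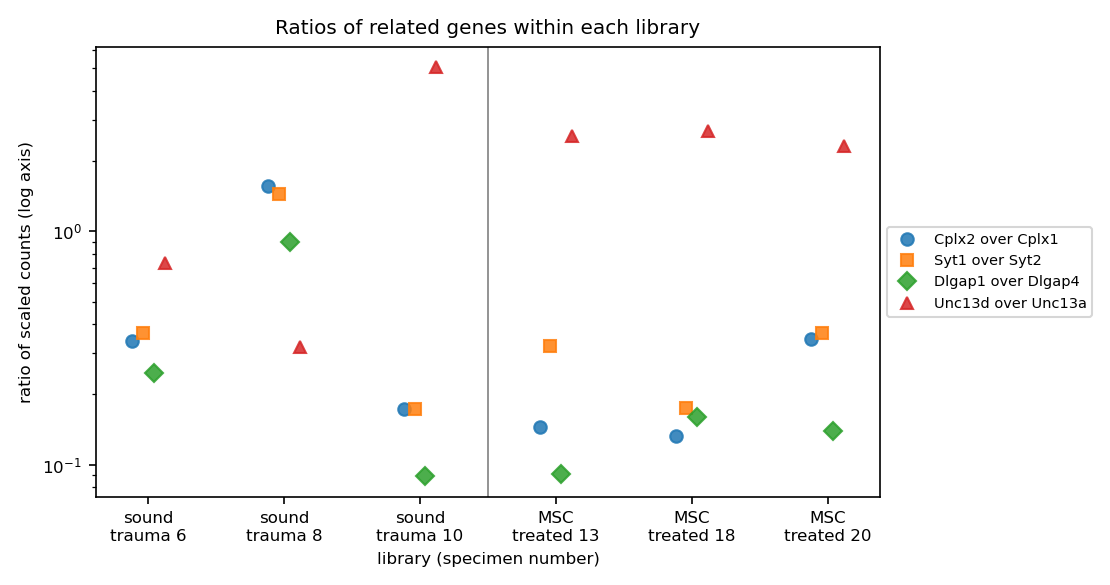
Ratios of the scaled counts of related genes within each library (log axis), with points shifted sideways so that they do not overlap. The ratios of Cplx2 to Cplx1, Syt1 to Syt2 and Dlgap1 to Dlgap4 are highest in sound trauma specimen 8, and the ratio of Unc13d to Unc13a is lowest there and highest in specimen 10.

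Other genes of the release machinery, from a list of 49 symbols outside the rule, were also mostly highest in specimen 8. Of these, 33 are named in the lists, 31 as down-regulated and 2 as up-regulated, and 30 of the 33 were highest in specimen 8, against 28.2% of all genes tested. Like the members, they have names here only because the study's comparison listed them, so that this count is a description. By limma 0 of the 33 passed an adjusted p of 0.05, and their median log2 fold change was -0.67, and -0.08 without specimen 8. Nsf, the ATPase that takes spent SNARE complexes apart, had 1866, 3275 and 1389 scaled counts against 1314, 1824 and 1561, and Rab3a, the small GTPase of synaptic vesicles, had 1281, 2450.4 and 759 against 782, 1174 and 972. Slc32a1, which loads GABA and glycine into vesicles, had 159 and 617 in specimens 6 and 8 and 35.7 in specimen 18, and at most 6.23 in the other libraries. Slc17a7, a vesicular glutamate transporter that spiral ganglion neurons also use, had 1392, 3706 and 733 against 714, 1348 and 683. Otoferlin (Otof), the calcium sensor of the hair cell ribbon synapse, ran the other way, with 236, 234 and 604 against 441, 559 and 403. Specimens 6 and 8 were the lowest for Otof and specimen 10 the highest, and its log2 fold change was 0.52 (standard error 0.39). The second list, of 22 genes for granule release in blood cells, had 6 named, all 6 as up-regulated and 3 of them the members above, a median of 0.25 on the log2 fold change scale and 0 of 6 past an adjusted p of 0.05 in limma. Rab27a, which docks cytotoxic granules, had 538, 523 and 549 against 680.5, 619 and 659, with all 3 MSC treated values above the 3 sound trauma values and a log2 fold change of 0.28 (0.11). Groups were separate in this direction for 4.25% of all genes tested. Rab27a has a name here only because the study's comparison listed it as up-regulated, so nothing is read from its separation.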

How the data were processed

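The members and gene lists were chosen with earlier results of these data known. According to the study's methods, reads were trimmed and aligned by the authors to an Ensembl release of the C57BL/6NJ genome. How reads were counted, whether strand was used and which filters applied is not given in the sources used here, so reads shared between overlapping genes or close paralogs may be uncertain. The deposited table holds a signal per gene and library that is the read count times 1 factor. Every value (100%, tolerance 0.01 of a read) was a whole multiple of 1 step, so that reads were recovered. The deposited lists give symbols for 3716 of 3878 genes, and mean FPKM values by the authors for each group, over a number of libraries that is not stated. Their FDR and log2 fold change columns, from NOISeq, were not used.

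Genes were filtered with filterByExpr on the recovered reads and fitted with limma-trend on log2(scaled count + 1), which understates changes of low genes, and adjusted p values are Benjamini-Hochberg over 15970 genes. The fits were checked on simulated data. Each group has 3 libraries, and no test is given for single members, since the lists rest on this contrast. Within each role, values in every library are given for up to 5 members of the highest mean, and for the up list, separate groups and the largest and smallest differences. Syt1, Syt4 and the gene pairs were chosen after their values were seen, and the other members are given by range. Results that name some of the members are not reported here, while counts and medians cover all 48. Alternatives were other scalings, pseudocounts and filters, each library left out, edgeR and DESeq2. The floor of 3 reads covers counting error only. Promoters came from RefSeq, for 34 members. Versions used were limma 3.58.1 with R 4.3.3, DESeq2 1.42.0, edgeR 4.0.16, pandas 2.3.3 and matplotlib 3.10.9 with Python 3.11.15.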

Additional observations from a re-analysis of the deposited data

How the results depend on the processing

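No paired analysis was possible because the groups share no specimen number. The median log2 fold change of the members, -0.69, kept its sign under every other scaling, pseudocount, filter and test (-0.96 to -0.62), and ranged from -1.15 to -0.05 with 1 library left out. Without specimens 6 and 8 together, added after the data were seen, it was 0.30, and 4 in place of 45 down list members had a lower mean in MSC treated animals. That count was 30 without specimen 8 and 45 with any other single library left out. Members with separate groups numbered 3, 1 with scaling by total counts, and 3 to 33 with 1 library left out, with 5 without specimen 13, 6 without specimen 18 and 33 without specimen 10, the sound trauma library that lay within or below the MSC treated range for most members. Genes past an adjusted p of 0.05 in limma numbered 0 in every setting except without specimen 10, which gave 1. In edgeR and DESeq2, single fold changes were over 1.5 times as large for 15 of 47 members, among them Syt1 (-0.92 to -1.93 in edgeR), Dlgap1 (-1.41 to -2.17) and Syn2 (-0.42 to -1.14). Of 47 single log2 fold changes, 16 changed sign without specimen 8 and 43 without specimens 6 and 8, against 0 in the other settings. With 3 libraries a group, and low counts for Syt10, differences smaller than the spread between the sound trauma libraries could not be resolved.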

Other observations

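Some genes of the release and plasticity machinery did not follow the order of libraries of the members. Camk2a and Camk2b, subunits of the calcium and calmodulin dependent kinase of the postsynaptic density, had 1983, 1345 and 563 scaled counts against 1131, 247 and 460.1, and 2382, 4157 and 785 against 1104, 521 and 583. MSC treated specimen 18 was the lowest library for both, although it held the highest glial marker sum of its group. Gap43, a protein of growing axons, had 69.5, 626 and 18.8 against 95.6, 31.7 and 285. MSC treated specimen 20 was thus second to sound trauma specimen 8 for Gap43, above specimen 6, and the log2 fold change was 0.02 (standard error 1.36) although the gene is in the down list.

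Slc6a5, the glycine transporter of inhibitory hindbrain and spinal neurons, had 234, 152 and 0.893 scaled counts against 3.12, 82.7 and 0. It was at or within 3 reads in specimens 10, 13 and 20 and was read in specimens 6, 8 and 18. Rab27b, a docking GTPase of secretory granules, was 1 of the 2 release genes outside the rule that are in the up list, with 261, 343 and 502 against 367, 574 and 584.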
